A study of Mus musculus with 4 samples.

Results

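The 10 transcription factor genes described here are *Pitx1*, *Tbx2*, *Tbx3*, *Tbx4*, *Tbx15*, *Tbx18*, *Irx3*, *Irx5*, *Shox2* and *Twist1*, which are known for patterning the limb bud. They were chosen by a rule that took named symbols from the deposited table with their log2 values in the 4 libraries in view, together with the differences between PDGFRα reporter+ and PDGFRα reporter− cells. The differences between the populations are therefore given as a description, without a test. All 10 symbols were found among the 45802 symbols of the table, and all 10 belong to the 14415 genes with a value in every library.

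The libraries were made from periosteal cells of the femurs and tibias of male Pdgfrα mT/mG mice, 9 to 10 weeks old, which all received tamoxifen at 150 mg/kg per day for 5 d and were taken 14 d after the last dose. In these animals a tamoxifen-inducible CreER driven by *Pdgfra* regulatory sequences turns the tdTomato membrane label of a cell into GFP, and the GFP records past promoter activity and not the receptor on the cell surface. Cells pooled from 3 to 6 mice per sample, according to the labels, were kept through 1 passage in medium with bFGF at 10 ng/mL, and CD31−CD45−Ter119− cells were sorted into mGFP+ (PDGFRα reporter+) and mTdtomato+ (PDGFRα reporter−) populations. For the number of mice per pool, the study's methods give a higher range than the labels. Each population is represented by 2 libraries of total RNA, and the comparison asks how the transcriptomes of the sorted populations differ.

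Limb buds are laid out by transcription factors that set which limb forms, where its margins lie and how long each bone primordium grows. *Pitx1* and *Tbx4* act in the hindlimb, T-box repressors mark the margins, Iroquois genes act in the early bud, *Shox2* is needed for the proximal bones, and *Twist1* is needed for growth of the limb mesenchyme. Periosteal cells descend from that mesenchyme, and cultured connective tissue cells are known to keep part of the positional transcription factor pattern of their site of origin.

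In PDGFRα reporter+ cells, *Pitx1* and *Tbx4* had higher log2 values than in PDGFRα reporter− cells, by 0.98 and 0.60, and *Irx3* had lower values, by 0.61. *Tbx15*, *Shox2* and *Twist1* differed by less than 0.1 between the population means. For *Tbx3* and *Tbx18*, the libraries numbered 2 and 3 in the headings of the table lay much farther apart than the populations. The population ranges did not overlap for 4 of the 10 genes, with PDGFRα reporter+ cells higher for 3 and lower for 1. Among all 14415 genes, 7.59% lay entirely higher and 8.10% entirely lower in PDGFRα reporter+ cells, and since the genes were chosen with these values known, nothing follows from the count.

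**Figure D1:**
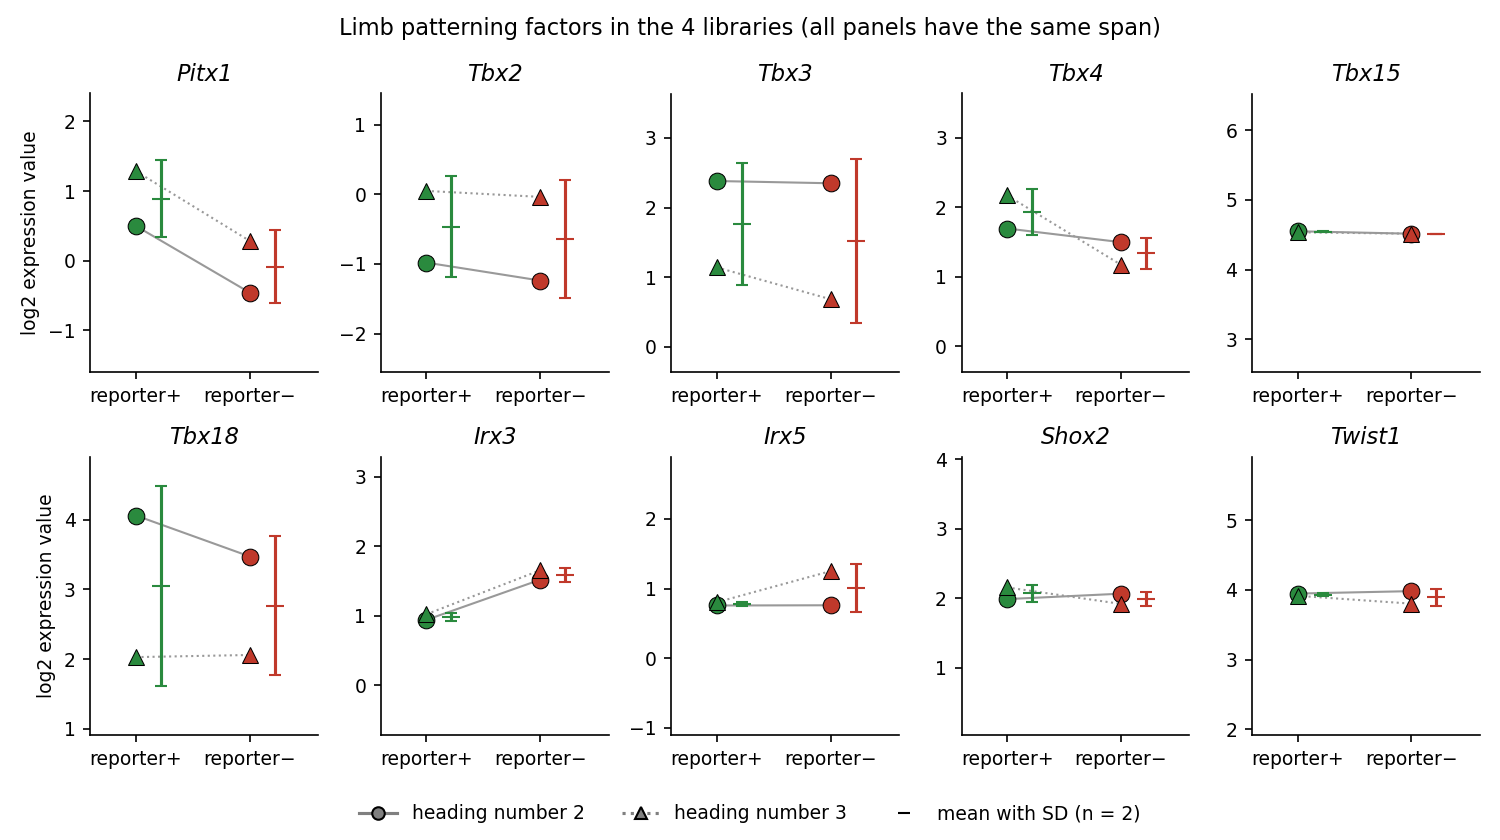
Log2 expression values (vertical axis) of the 10 genes in the PDGFRα reporter+ (green) and PDGFRα reporter− (red) libraries, with circles for heading number 2, triangles for heading number 3, and the mean with SD (n = 2) beside each population. The populations are separate for *Pitx1*, *Tbx4*, *Tbx15* and *Irx3*, whereas *Tbx2*, *Tbx3*, *Tbx18*, *Irx5* and *Twist1* separate by heading number, the latter pair by small distances.

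The table gives each column a population and a number, 2 or 3, whereas 1 and 2 are the replicate numbers in the labels. Population and heading number name the libraries here. Whether equal numbers mark cells of 1 preparation is not stated. The values are quantile normalized, with a median of 1.48 and quartiles of −1.47 and 3.00 in each library. The linear unit and the depth are not stated, so that no counting error can be given. The values of a gene are compared mainly between libraries. Sums over marker genes and sets of genes of like log2 value do set different genes side by side, in a unit that is not known. The correlation across genes, which do not count as replicates, was 0.984 and 0.982 between populations of the same number, compared with 0.952 and 0.957 between libraries of the same population. Periosteal stromal genes were present in all 4 libraries, with log2 values of 7.44 to 7.85 for *Col1a1*, 7.44 to 7.87 for *Pdgfra* and 3.51 to 4.22 for the limb mesenchyme gene *Prrx1*.

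*Pitx1* encodes a bicoid-type homeodomain factor that gives the hindlimb its identity. The gene lies at chr13:55825051-55836192 on the minus strand (GENCODE M21, GRCm38). Library 2 of the reporter+ cells had a log2 value of 0.50 and library 3 of 1.28, against −0.46 and 0.28 for libraries 2 and 3 of the reporter− cells. Both reporter+ libraries lay above both reporter− libraries, with a gap of 0.22 between the populations, while libraries of 1 population were up to 0.79 apart. The means were 0.89 ± 0.56 (SD, n = 2) and −0.09 ± 0.53 (SD, n = 2), a difference of 0.98, or 1.97-fold on the linear scale. With a pseudocount of 1 added to the linear values, the difference was 0.56. The difference was 0.96 within heading number 2 and 1.00 within heading number 3. Thus *Pitx1* moved by nearly the same amount in both numbers, and library 3 was the higher one in each population.

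*Tbx4*, a T-box gene that acts downstream of *Pitx1* in the hindlimb bud and upstream of *Fgf10*, lies at chr11:85886422-85916097 on the plus strand. It had log2 values of 1.69 and 2.17 in PDGFRα reporter+ libraries 2 and 3 and of 1.50 and 1.17 in the PDGFRα reporter− libraries. The populations did not overlap, and the gap between them was 0.20. The means were 1.93 ± 0.34 (SD, n = 2) and 1.34 ± 0.23 (SD, n = 2), and their difference of 0.60 (1.51-fold) was made up of 0.20 within heading number 2 and 1.00 within heading number 3, so that its size rested mostly on the latter. The order of the numbers was opposite in the populations, with number 3 higher by 0.48 in PDGFRα reporter+ cells and lower by 0.32 in PDGFRα reporter− cells.

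Promoter sequences of 300 bases, from 250 before to 50 after the RefSeq start (GRCm38.p6), were held for 5 of the 10 genes (*Tbx4*, *Tbx18*, *Irx3*, *Shox2* and *Twist1*). They are printed for *Tbx4*, which was higher in both numbers, for *Irx3*, which was lower in both, and for *Twist1*, which was nearly equal. Capitals mark E-boxes (CANNTG), T-box half-sites (AGGTGT or its complement ACACCT) and TATA boxes (TATAAA or TTTATA). The windows are chr11:85896515-85896814 (plus strand) for *Tbx4*, chr8:91801605-91801904 (minus strand) for *Irx3* and chr12:33957421-33957720 (plus strand) for *Twist1*, written 5′ to 3′ along the strand of the gene. The RefSeq starts of *Tbx4* and *Irx3* lie inside the gene as GENCODE draws it.
Tbx4: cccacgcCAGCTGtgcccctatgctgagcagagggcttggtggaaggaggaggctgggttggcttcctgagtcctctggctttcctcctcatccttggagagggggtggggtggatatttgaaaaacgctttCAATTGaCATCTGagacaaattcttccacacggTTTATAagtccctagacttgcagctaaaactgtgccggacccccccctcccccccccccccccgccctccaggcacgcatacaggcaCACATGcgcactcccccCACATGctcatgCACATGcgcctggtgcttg
Irx3: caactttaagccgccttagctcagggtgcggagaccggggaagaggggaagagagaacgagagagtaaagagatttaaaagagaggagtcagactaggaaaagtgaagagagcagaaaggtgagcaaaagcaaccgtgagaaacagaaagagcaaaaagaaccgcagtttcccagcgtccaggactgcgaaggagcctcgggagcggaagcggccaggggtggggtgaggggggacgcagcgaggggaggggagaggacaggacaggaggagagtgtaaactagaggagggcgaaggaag
Twist1: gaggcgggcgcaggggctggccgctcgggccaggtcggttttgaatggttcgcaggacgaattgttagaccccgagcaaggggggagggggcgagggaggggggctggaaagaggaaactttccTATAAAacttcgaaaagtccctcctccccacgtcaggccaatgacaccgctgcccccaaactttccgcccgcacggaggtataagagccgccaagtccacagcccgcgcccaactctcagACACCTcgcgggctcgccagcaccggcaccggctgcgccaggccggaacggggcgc

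The *Tbx4* window held 6 E-boxes, the binding letters of bHLH factors such as Twist1, at positions −243, −118, −111, 3, 20 and 32 from the start site. Of all 32851 promoters of this length, 72.3% held at least 1 E-box and 0.67% held 6 or more. The *Tbx18* window held 1 E-box at position −168, and the windows of *Irx3*, *Shox2* and *Twist1* held none of these letters. A TATAAA or TTTATA was found at −85 in *Tbx4*, at −203 in *Shox2* and at −126 in *Twist1*, and in 13.6% of all promoters. The T-box letters were found only in *Twist1* among the 5 windows, at −6, and in 13.7% of all promoters. All letters were searched on both strands. The Twist-type E-box CATATG, which would also count as an E-box, was absent from the 5 windows and present in 3.91% of all promoters. The bicoid-type site TAATCC (complement GGATTA) was absent from them and present in 7.06%, the homeobox core TAATTA in 5.29%, and the Iroquois-type site ACANGT (complement ACNTGT) in 30.8% of all promoters. The GC box GGGCGG (complement CCGCCC) was found once each in *Tbx4*, *Shox2* and *Twist1*, and in 35.7% of all promoters. These are matches of letters and show no binding.

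*Tbx2* and *Tbx3* encode closely related T-box repressors of the limb margins. *Tbx2* lies at chr11:85832551-85841948, with 44473 bases between it and *Tbx4* on the same strand, and *Tbx3* at chr5:119670669-119684724 on the plus strand. *Tbx2* had log2 values of −0.98 and 0.05 in PDGFRα reporter+ libraries 2 and 3 and of −1.24 and −0.04 in the reporter− libraries. The populations overlapped, with a difference of 0.26 within heading number 2 and of 0.09 within heading number 3. The mean difference of 0.17 was 0.06 with a pseudocount of 1 and ran from −0.43 to 0.77 when a library was left out. Number 3 of *Tbx2* was higher than number 2 by 1.03 in PDGFRα reporter+ and by 1.20 in PDGFRα reporter− cells. *Tbx3* went the other way between the numbers, with values of 2.38 and 1.14 in the reporter+ libraries and of 2.35 and 0.68 in the reporter− libraries. Number 3 of *Tbx3* was lower by 1.24 in PDGFRα reporter+ and by 1.67 in PDGFRα reporter− cells. Its population difference of 0.25 was 0.03 within heading number 2 and 0.46 within heading number 3. *Tbx2* and *Tbx4*, although close on the chromosome, did not share a pattern, since number 3 minus number 2 averaged 1.12 for *Tbx2* and 0.07 for *Tbx4*.

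*Tbx15* and *Tbx18* are a pair of related T-box genes of the skeletal and connective tissue mesenchyme, the former known for its part in skeletal growth and the latter for the patterning of somites. *Tbx15* (chr3:99240381-99354259, plus strand) had the most even values of the 10 genes, 4.55 and 4.54 in the reporter+ libraries and 4.51 and 4.51 in the reporter− libraries. Its populations did not overlap, yet the gap was 0.02 and the mean difference 0.03. The call of separate populations for *Tbx15* was lost when each library was centered on its median. *Tbx18* (chr9:87702800-87731260, minus strand) had values of 4.06 and 2.03 in PDGFRα reporter+ libraries 2 and 3 and of 3.47 and 2.06 in the reporter− libraries. Both libraries numbered 2 lay above both numbered 3, by 2.03 in PDGFRα reporter+ and by 1.41 in PDGFRα reporter− cells. Of 5 tenocyte markers, *Fmod*, *Thbs4*, *Egr1* and *Mkx* were also lower in number 3 of both populations, whereas *Tnmd*, the marker most particular to tendon, was not, with values of −6.02 and −1.18 in the reporter+ and of −1.82 and −1.94 in the reporter− libraries. The summed linear signal of the 5 markers, most of it from *Fmod* and *Thbs4* in number 2, was 127.5 and 19.6 in the reporter+ and 88.7 and 20.6 in the reporter− libraries. Of the 5 chondrocyte markers with values in every library, *Acan*, *Col2a1*, *Sox5* and *Sox6* were likewise lower in number 3 of both populations, with values for *Acan* of −1.09 and −4.91 in the reporter+ and of −1.62 and −4.89 in the reporter− libraries, and *Comp* was not. The median of number 3 minus number 2 was −2.35 for the chondrocyte and −1.99 for the tenocyte markers, beside 0.05 for all genes. The part of these markers in the values of *Tbx18* and *Tbx3* was not tested. Between the populations *Tbx18* differed by 0.59 within heading number 2 and by −0.03 within heading number 3.

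**Figure D2:**
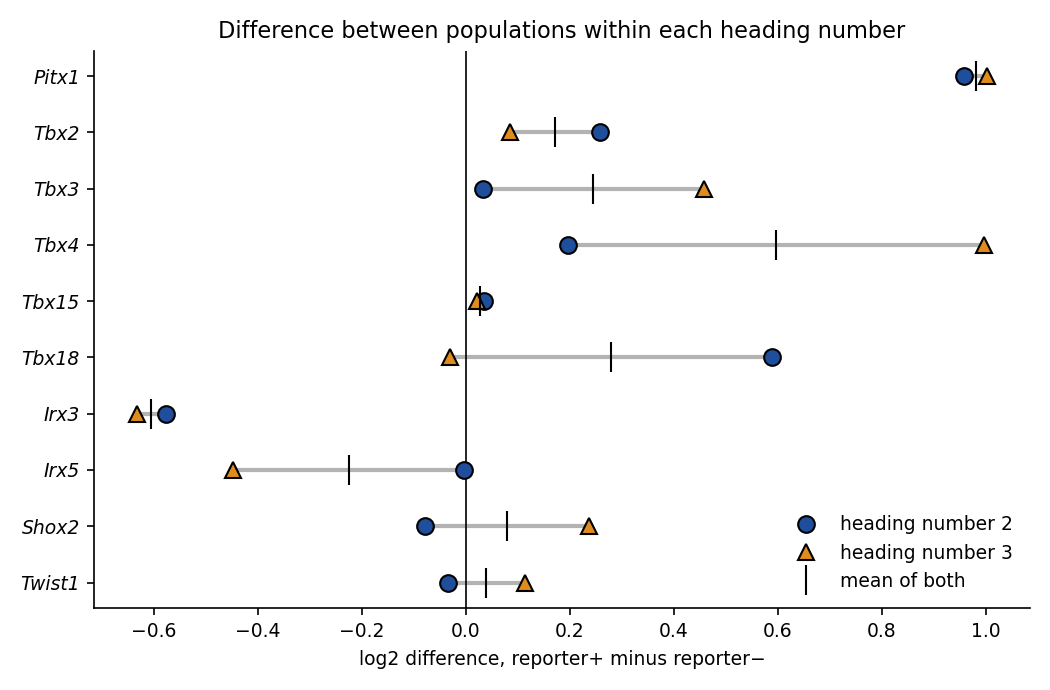
Log2 difference of PDGFRα reporter+ minus PDGFRα reporter− cells (horizontal axis) for each gene within heading number 2 (circles) and heading number 3 (triangles), with the mean of both as a vertical mark. *Pitx1* lies near 1 and *Irx3* near −0.6 in both numbers, and *Tbx4* and *Tbx18* each lie near 0 to 0.2 in 1 number and much higher in the other.

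The Iroquois homeodomain genes *Irx3* and *Irx5*, which act together in the early limb bud, lie on chromosome 8 at chr8:91798525-91802067 (minus strand) and chr8:92357625-92376286 (plus strand), with 555557 bases between them. *Irx3* had log2 values of 0.94 and 1.02 in PDGFRα reporter+ libraries 2 and 3 and of 1.52 and 1.66 in the reporter− libraries. Both PDGFRα reporter+ libraries lay below both PDGFRα reporter− libraries. The gap of 0.50 between the populations was larger than the largest distance within a population, 0.14. The means were 0.98 ± 0.06 (SD, n = 2) and 1.59 ± 0.10 (SD, n = 2), so that *Irx3* was 1.52-fold higher in PDGFRα reporter− cells. The difference was −0.58 within heading number 2 and −0.63 within heading number 3. *Irx5* had values of 0.76 and 0.80 in the reporter+ libraries and of 0.76 and 1.25 in the reporter− libraries. Only reporter− library 3 stood apart for *Irx5*, and the difference was −0.0032 within heading number 2 and −0.45 within heading number 3. The transcripts of the 2 genes share 1 window of 50 bases, and no other pair among the 45 pairs of these genes shares any, in GENCODE M21.

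*Shox2* (chr3:66971727-66981771, minus strand) encodes a homeodomain factor for growth of the proximal limb bones. Its log2 values were 1.99 and 2.16 in the reporter+ libraries and 2.07 and 1.92 in the reporter− libraries. The populations overlapped, and the difference changed sign between the numbers, from −0.08 to 0.24. *Shox2* overlaps *Rsrc1* on the opposite strand, which had values of 2.32 to 2.37 in the 4 libraries. The libraries were stranded according to the labels, whereas use of the strand in the counting is not stated. *Twist1* (chr12:33957671-33959829, plus strand) encodes a bHLH factor that pairs with E-proteins and restrains Runx2. It had values of 3.95 and 3.92 in the reporter+ libraries and of 3.98 and 3.80 in the reporter− libraries. The populations overlapped for *Twist1*, with a mean difference of 0.04 and a spread of up to 0.18 within a population.

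Of the 10 genes, 5 were higher in PDGFRα reporter+ cells in both numbers (*Pitx1*, *Tbx2*, *Tbx3*, *Tbx4* and *Tbx15*), compared with 22.1% of all genes. Another 2 were lower in both (*Irx3* and *Irx5*), compared with 24.8% of all genes, and 3 changed sign (*Tbx18*, *Shox2* and *Twist1*). The median difference of the 10 genes was 0.13, beside −0.0035 over all 14415 genes. These counts use the contrast by which the genes were chosen. Leaving out 1 library turned the direction of the mean difference for *Tbx2*, *Tbx3*, *Tbx18*, *Irx5*, *Shox2* and *Twist1*.

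Number 3 minus number 2 had the same sign in both populations for 7 of the 10 genes, compared with 73.8% of all genes. It was positive for *Pitx1*, *Tbx2*, *Irx3* and *Irx5* and negative for *Tbx3*, *Tbx18* and *Twist1*. The exceptions were *Tbx4* and *Shox2*, with opposite signs, and *Tbx15*, whose reporter− libraries had the same value. The number difference was larger in size than the population difference for 5 of the 10 genes, compared with 75.7% of all genes. The 5 genes were *Tbx2*, *Tbx3*, *Tbx18*, *Irx5* and *Twist1*. For *Tbx18*, the average difference between the numbers was −1.72, and 98.4% of the 2508 genes within 0.5 of its mean log2 value differed by less. For *Tbx3* it was −1.45, and 97.0% of 2337 genes of like log2 value differed by less. Both genes were chosen with their library values in view, so these shares are a description only. *Tbx15* and *Shox2* were at the other end, with differences of −0.0072 and 0.01 between the numbers.

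**Figure D3:**
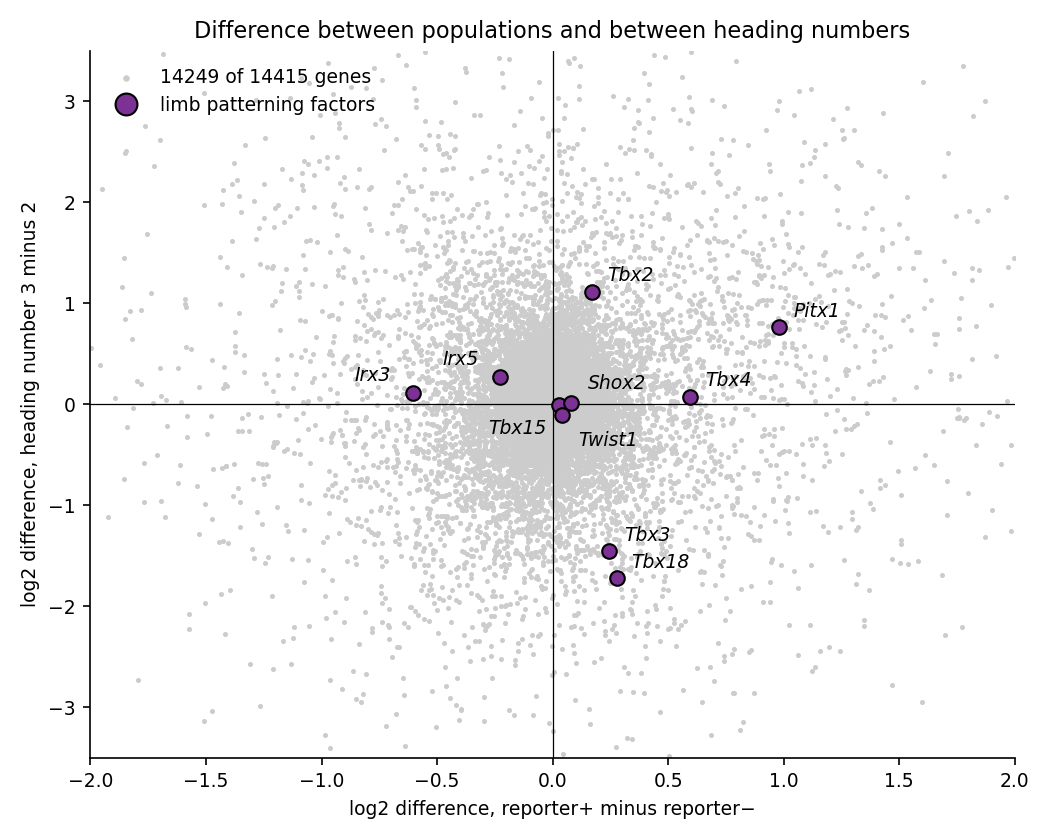
Log2 difference between the populations (horizontal axis) against that between heading numbers 3 and 2 (vertical axis) for the 10 genes (purple) and for 14249 of the 14415 genes (gray, those within the axes). *Pitx1*, *Tbx4* and *Irx3* stand out along the horizontal axis, *Tbx2*, *Tbx3* and *Tbx18* along the vertical axis, and *Tbx15*, *Shox2* and *Twist1* lie near the origin.

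Many other members of these gene families were blank in some or all libraries, a blank meaning that no value is listed. Of 12 further T-box genes, 4 had a value in all 4 libraries and 4 had none. *Mga*, a broadly expressed T-box gene, had values of 2.28 to 2.59. *Tbx5*, the forelimb counterpart of *Tbx4* and the nearest coding gene on the higher side of *Tbx3*, had values of −4.61 and −6.90 in the reporter+ libraries and of −5.32 and −5.39 in the reporter− libraries. The other T-box genes with a value, *T*, *Tbx1*, *Tbx6*, *Tbx19*, *Eomes* and *Tbr1*, had values below 0 wherever they were listed. Of 4 further Iroquois genes, *Irx1* and *Irx2* were listed in all libraries and *Irx4* in none. *Irx2* had values of −4.14 and −1.56 in the reporter+ libraries and of −5.19 and −1.69 in the reporter− libraries, and so separated by number. *Pitx3* was listed only in the libraries numbered 2, at −6.54 and −6.47. *Twist2*, the closest relative of *Twist1*, had values of 1.08 and 1.58 in the reporter+ libraries and of 1.26 and 2.00 in the reporter− libraries.

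**Figure D4:**
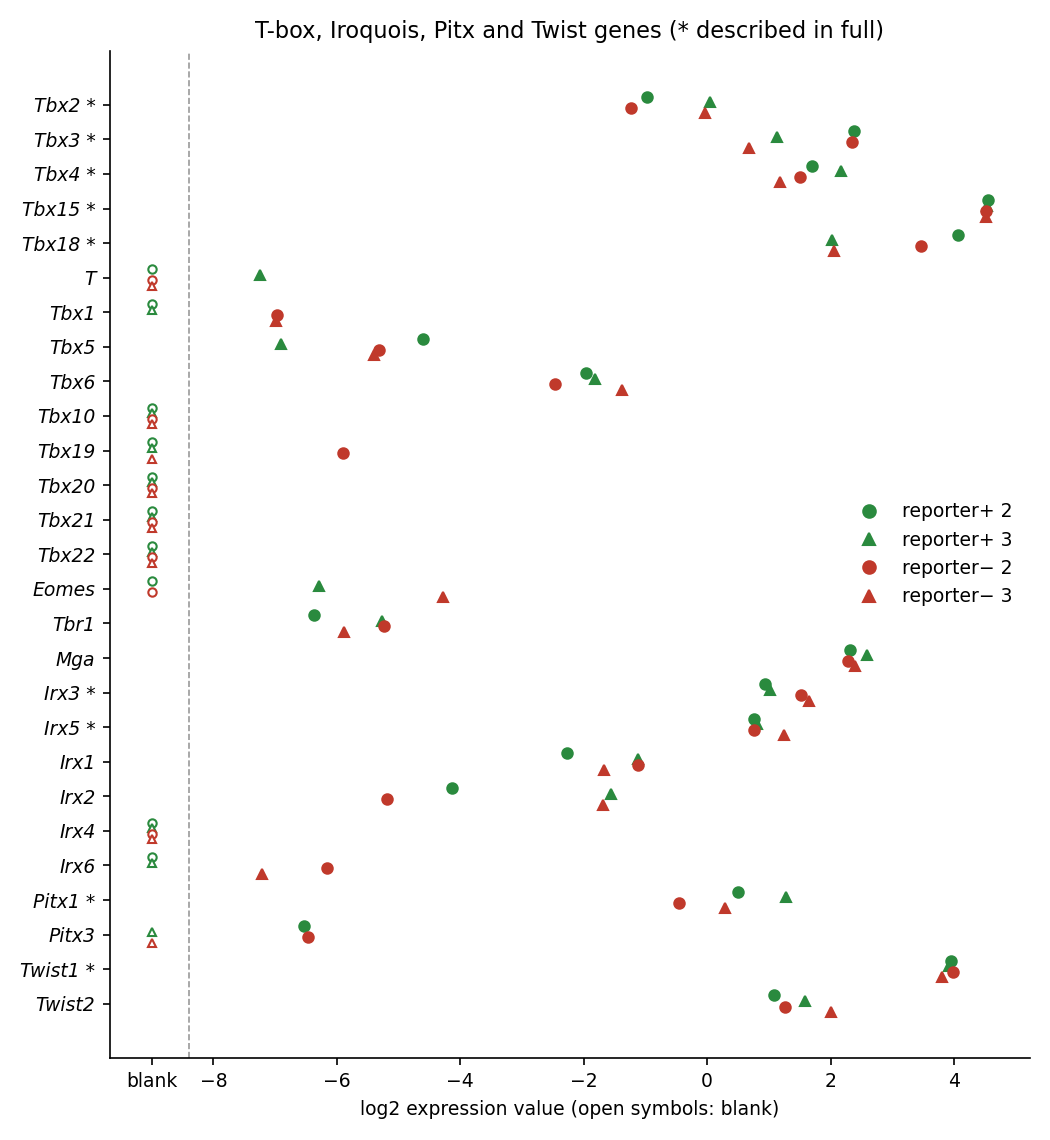
Log2 expression values (horizontal axis) of T-box, Iroquois, Pitx and Twist genes, 1 row per gene, with green for PDGFRα reporter+ and red for PDGFRα reporter− libraries and open symbols at the left for blanks. Genes with an asterisk are described in full and have a value in every library, whereas *Tbx10*, *Tbx20*, *Tbx21*, *Tbx22* and *Irx4* have none.

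Over 6 lists of related genes (the T-box, Iroquois and Pitx families, Twist-like bHLH factors with their partners, limb mesenchyme factors, and limb signals with known targets), 97 genes were examined beside the 10. Of these, 68 had a value in every library. With limma, 0 of the 68 were higher and 0 lower at an adjusted p under 0.05, beside 2 genes with an unadjusted p under 0.05. The same fit called 0% of all genes (0 of 14415, with 131 at an unadjusted p under 0.05), so that a lack of calls shows no lack of change. With the heading number as a block it called 29 of all genes and 0 of the 68. The populations did not overlap for 0 genes higher and 4 genes lower in PDGFRα reporter+ cells, beside 7.59% and 8.10% of all genes. In both numbers 9 of the 68 were higher and 20 lower, beside 22.1% and 24.8% of all genes. The median difference of the 68 was −0.08, beside −0.0035 over all genes. It ran from −0.24 to −0.03 when a library was left out. Of the genes with a value in every library, 4 T-box, 2 Iroquois and 10 Twist-like genes, 0 were without overlap, and the Pitx list held no such gene. *Tbx1* and *Irx6* were listed in both reporter− libraries and in neither reporter+ library, with values of −6.97 and −6.99 for *Tbx1* and of −6.16 and −7.20 for *Irx6*.

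Of the 34 limb mesenchyme factors with all values, *Meis1*, a proximal limb homeobox gene, was the single one without overlap, with values of 2.85 and 2.76 in the reporter+ and of 2.86 and 3.02 in the reporter− libraries (difference −0.14, SE 0.16). Among the 18 limb signals and targets, *Cdkn1a*, the gene of the cell cycle inhibitor p21 and a known target of Tbx2 repression, had values of 4.92 and 5.00 in the reporter+ and of 5.38 and 5.55 in the reporter− libraries. Its difference was −0.51 (SE 0.15), with an unadjusted p of 0.0215 and an adjusted p of 1 in limma. *Cdkn2a*, another gene repressed by Tbx2 and Tbx3, had values of 4.72 and 4.41 in the reporter+ and of 4.73 and 4.97 in the reporter− libraries (difference −0.29, SE 0.18). *Bmp7*, named after its values were seen, had values of −2.87 and −3.87 in the reporter+ and of −1.66 and −1.86 in the reporter− libraries (difference −1.61, SE 0.57, limma unadjusted p 0.0411, adjusted p 1). *Fgf10*, the limb bud growth signal downstream of *Tbx4*, had differences of −0.45 and −0.23 within the numbers, whereas its libraries numbered 3 lay above those numbered 2 by 1.52 on average. This name was also chosen after the values were seen.

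Of 17 nearest protein-coding neighbors outside the 10, 12 had a value in all libraries, and 0 of these 12 were without overlap between the populations, beside 7.59% of all genes higher and 8.10% lower. Their differences ran from −0.40 to 0.46. *H2afy*, on the higher side of *Pitx1*, had values of 2.59 to 2.90, and *Fto*, next to *Irx3*, of 3.90 to 4.26. *Wars2*, 1195 bases from *Tbx15*, had values of 0.57 to 0.66. *Nt5e*, the gene of CD73 and the higher neighbor of *Tbx18* at a distance of 595937 bases, separated by number like *Tbx18*, with values of 4.58 and 1.10 in the reporter+ and of 4.10 and 1.25 in the reporter− libraries. Of 11 noncoding genes that overlap one of the 10 or lie within 10 kb, 6 were in the table, among them *Tbx3os1*, *Irx3os* and *Crnde*. All 6 were blank in every library, as were 29060 of the 45802 symbols of the table, so that nothing follows from these blanks.

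Markers of macrophages, endothelium, skeletal muscle and smooth muscle moved with the populations, although CD45+ and CD31+ cells were gated out in the sort. Of 15 macrophage markers, 14 had all values, and 13 of these were higher in PDGFRα reporter+ cells in both numbers, beside 22.1% of all genes. Their summed linear signal, which the highest genes of a list dominate, was 250.1 and 293 in the reporter+ libraries and 99.99 and 188 in the reporter− libraries, most of it from *Lyz2*, and none was blank throughout. With the heading number as a block, limma called 29 of all 14415 genes, and 3 of these were markers of other cell types. In that limma fit the macrophage genes *C1qb* and *Tyrobp* (adjusted p = 0.0437 for each) were higher in PDGFRα reporter+ cells. The smooth muscle gene *Actg2* (adjusted p = 0.0473 in the same limma fit) was lower in PDGFRα reporter+ cells. These 3 were named after their values were seen, and 0 genes were called with the block and no trend. *Adgre1*, the gene of F4/80, had values of 1.36 and 2.17 in the reporter+ and of −0.01 and 1.27 in the reporter− libraries, and *Csf1r* of 1.08 and 1.60 and of −0.11 and 1.13. The summed signal of 8 endothelial markers was 0.32 and 1.24 in the reporter+ and 1.23 and 3.91 in the reporter− libraries. Of the 6 endothelial genes listed throughout, 5 were lower in both numbers, beside 24.8% of all genes. *Pecam1* had values from −4.79 to −4.68 in the reporter+ and from −1.99 to −1.11 in the reporter− libraries, and *Cdh5* from −6.40 to −4.75 and from −1.97 to −0.67. Skeletal muscle markers summed to 0.83 and 0.44 against 3.51 and 1.19, and smooth muscle and pericyte markers to 18.4 and 29.7 against 39.8 and 46.3. Osteoblast markers summed to 3.11 and 5.31 against 2.02 and 3.75, with overlap between the populations. Of the 5 osteoblast markers listed throughout, 2 were higher and 1 was lower in both numbers, and their median difference was 0.09. The sum of 7 chondrocyte markers was 285 and 252 against 148 and 188, nearly all of it from *Comp*, with values of 8.09 and 7.97 against 7.06 and 7.53. *Col2a1*, the cartilage collagen gene, went the other way in both numbers, with values of 2.86 and −1.33 against 3.32 and 1.23, and of the 5 chondrocyte markers listed throughout 2 were higher and 1 was lower in both numbers. Erythroid markers summed to 0.09 and 0.10 against 0.19 and 0.17, Schwann cell markers to 3.51 and 1.32 against 4.24 and 2.68, and neutrophil markers to 0.37 and 4.12 against 0.33 and 1.03. Lymphocyte and keratinocyte markers summed to under 0.1 in every library. *Krt5* was listed in 1 library, *Sox10* in the reporter− libraries alone, and *Myod1* in 3 libraries, all of them below −2. The part of these markers in the differences of *Pitx1*, *Tbx4* and *Irx3* was not tested. In these bulk libraries, fewer cells of a type and less RNA per cell cannot be told apart.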

How the data were processed

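Per the labels and the study's methods, the authors made stranded paired-end libraries of total RNA and analyzed them with Partek and Spotfire. The submitters' processing notes name bcl2fastq 2.17.1.14, Partek 7.0 and GRCm38.p6. The aligner, the counting, the annotation and the filters are not given in the sources used here. The authors deposited quantile normalized log2 values, 1 per symbol and library, with blanks where no value is given. Quantile normalization forces the same distribution on each library, so that only relative changes remain, and the depth is unknown.

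From these values, differences of means and SDs were computed in Python 3.11.15 (numpy 2.4.6, pandas 2.3.3). The 14415 genes listed in every library were fitted with limma 3.58.1 in R 4.3.3 (lmFit, eBayes with a trend, no block, two-sided, Benjamini-Hochberg adjustment over all genes, threshold 0.05). With 2 libraries per population, no exact two-sided permutation test of a single gene can go below p = 0.333. Each sample is described as a pool of mice, without saying whether libraries of 1 population came from separate pools, so p-values measure the spread between these libraries. The fit was tested on simulated data. Where these held a difference between the heading numbers, the fit without a block missed the changed genes, most of which the fit with the block found. Those genes were changed by 2 on the log2 scale, more than the population means of any of the 10 genes differed. Recovery at the size of the differences described here was not tested. Columns were assigned to populations by their headings. The genes, the lists and the tests were chosen with earlier results of these data known. All 10 genes are named. Of each related list, the genes with the largest and smallest difference among those averaging at least 0 on the log2 scale with separate populations are named, as are nearest coding neighbors and defining markers. Positions are from GENCODE M21 and promoters from RefSeq GRCm38.p6, matched by symbol. Protein sequences were not used here, and 1 gene of the lists is not reported here.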

Additional observations from a re-analysis of the deposited data

Results flagged for a closer look

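The difference between PDGFRα reporter+ and PDGFRα reporter− cells had opposite signs in heading numbers 2 and 3 for 3 of the 10 genes. For *Tbx18* it was 0.59 within number 2 and −0.0309 within number 3. For *Shox2* it was −0.078 and 0.24, and for *Twist1* −0.0348 and 0.11. With 1 library of each population per number, the difference between the numbers was not tested.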

How the results depend on the processing

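The differences of the 10 genes were recomputed under 10 alternatives and 1 more added after seeing the data. With a filter on low values *Tbx2* gives no value. The block, the trend, the filter and the filling of blanks leave a difference of means as it is by construction. The pseudocount and the median centering can move it, and changed the sign of 0 of the 10 differences. The value of *Irx3* moved by more than the spread between replicates, to −0.43 with a pseudocount of 1. The same pseudocount, which shrinks differences between low values, brought *Pitx1* from 0.98 to 0.56 and *Tbx2* from 0.17 to 0.06. Each moved by less than the SD between libraries of 1 population, which includes the difference between the numbers. Within the numbers the *Pitx1* difference without a pseudocount was 0.96 and 1.00, so its drop was large beside that spread. Leaving out 1 library, which unbalances the heading numbers, changed the sign for 6 genes, *Tbx2* (from −0.43 to 0.77), *Tbx3* (−0.59 to 1.08), *Tbx18* (−0.74 to 1.30), *Irx5* (−0.47 to 0.02), *Shox2* (−0.0044 to 0.16) and *Twist1* (−0.05 to 0.13). It kept the sign of *Pitx1* (0.59 to 1.37), *Tbx4* (0.36 to 0.83), *Tbx15* (0.02 to 0.04) and *Irx3* (−0.67 to −0.54). The number of the 10 genes without overlap ran from 6 to 8 when a library was left out, as fewer values are easier to separate (7 without PDGFRα reporter+ library 2, 7 without PDGFRα reporter+ library 3, 8 without PDGFRα reporter− library 2, 6 without PDGFRα reporter− library 3), and was 3 with each library centered on its median.

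The heading number as a replicate block in the limma model raised the genes called over the whole table from 0 to 29, with 0 of the 68 related genes among them. With the block and eBayes without a trend, the alternative chosen after seeing the data, 0 genes were called, beside 941 at an unadjusted p under 0.05. Libraries of the same number deviated together from the population means, with a correlation of 0.68 over the 14415 genes. The sources do not state that equal numbers share a preparation. Counting error cannot be given at an unknown depth.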
